A study of Mus musculus with 1078 samples.

Results

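The genes described here were 10 receptor genes of natural killer (NK) cells, taken as a fixed list out of 21765 genes. They were Ncr1, Klrb1c, Klra7, Klra8, Klrk1, Klrd1, Klrc1, Klrg1, Il2rb and Cd7. They were read in the 53 cells labelled NK in the CD45-positive sort and in the 327 cells labelled T cell in the CD3-positive sort, out of 1078 cells in all. All 10 were found in the expression table. The cells were taken by their deposited labels, which were made from clusters of expression.

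NK cells kill through germline-encoded receptors whose activating and inhibitory signals are weighed against each other, without the rearranged antigen receptor of a T cell. Most of the lectin-like members sit together in the NK gene complex on mouse chromosome 6. Activated CD8+ T cells can also carry several of these receptors, in particular NKG2D and the CD94/NKG2A pair, the first an activating and the second an inhibitory receptor.

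The cells came from tumors of GL261, a mouse glioma line, implanted into the brains of C57Bl/6 mice of both sexes that were 6 to 8 wk old. Mice received losartan+anti-PD1, anti-PD1 (200 μg per mouse in 3 doses), losartan (60 mg/kg/day for 2 wk) or control treatment (PBS and control IgG). Losartan blocks the angiotensin II type 1 receptor, and anti-PD1 is an antibody against the T cell checkpoint receptor PD-1. Viable single cells were sorted and sequenced by Smart-seq2, a plate method that reads full-length cDNA of 1 cell per well without molecular identifiers, with 1 plate for each sort and treatment.

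The labels name no animal for any cell, so each group of cells was 1 sample, no test was run, and treatment and plate cannot be told apart. An SD below is over the cells of a group, and an interval on a share of cells is an exact (Clopper-Pearson) 95% interval that covers counting error only. Each cell was scaled to a total of 100000 (TP100K). Differences are log2 ratios of mean TP100K after adding 1, and a difference of 1 or more in size was taken as large. A gene counted as measured in a comparison where 25% or more of the cells in at least 1 of its groups were above 0.

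Of the CD45-positive cells, the label NK was given to 36 of 73 on the losartan+anti-PD1 plate, 2 of 26 on the anti-PD1 plate, 5 of 71 on the losartan plate and 10 of 70 on the control plate. By the study's methods this sort took CD3-negative cells, so these are not shares of all leukocytes. The T cells numbered 84 with losartan+anti-PD1, 88 with anti-PD1, 76 with losartan and 79 with control treatment. NK cells had a median of 2765 genes (range 1592 to 5825) and 237484 expected counts (7946 to 875023) per cell. T cells had a median of 2046 genes (1034 to 6071), with plate medians of 1954 to 2135, and their values carry no read depth. Levels in the 2 sorts are in different units, and no ratio was taken between them. Shares of cells and numbers of genes above 0 are given for both sorts, and their dependence on depth and library protocol was not tested.

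The NK label was checked on 7 marker genes that are not on the list. All 7 were detected, from Fcer1g in 53 of 53 cells and Gzma in 52 to Eomes in 29 and Xcl1 in 26. Fcer1g and Tyrobp do not set the label apart from the myeloid cells of this sort, where 63 and 72 of 73 held them. Of 6 markers of type 1 innate lymphoid cells, Tnfsf10 was above 0 in 47 NK cells (mean 3.04 TP100K), Itga1 in 9 and Tmem176a in 0. Cd3e, Cd3g and Cd4 were at 0 in all 53 cells, while Cd3d was above 0 in 14 and Cd8a in 13 at low values. The summed T cell markers had a median of 19.1 TP100K on the losartan+anti-PD1 plate and 3.39 on the control plate. That sum includes Cd247, which was above 0 in 35 of the 53 cells at a mean of 19.6 TP100K. The means of Cd3d, Cd8a and Cd8b1 were 0.868, 0.639 and 0.123 TP100K. The B cell genes Cd79a and Ms4a1 were at 0. Of 7 myeloid markers 6 were above 0 in some cell, from Ccr2 in 38, H2-Ab1 in 33 and Cd74 in 30 cells to Lyz2 in 2, and their sum ran from 0 to 484 TP100K, with medians of 58.05 on the losartan+anti-PD1 plate and 62.98 on the control plate. Its part in the results was not tested. Of the T cells, 289 of 327 had Cd3e and 287 had Cd3g, and the summed NK markers had medians of 0 to 17.7 TP100K per plate. The study's methods sorted immune cells as CD3-negative or CD3-positive. The Cd3 values of NK and T cells therefore do not check the labels apart from that gate.

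**Figure D1:**
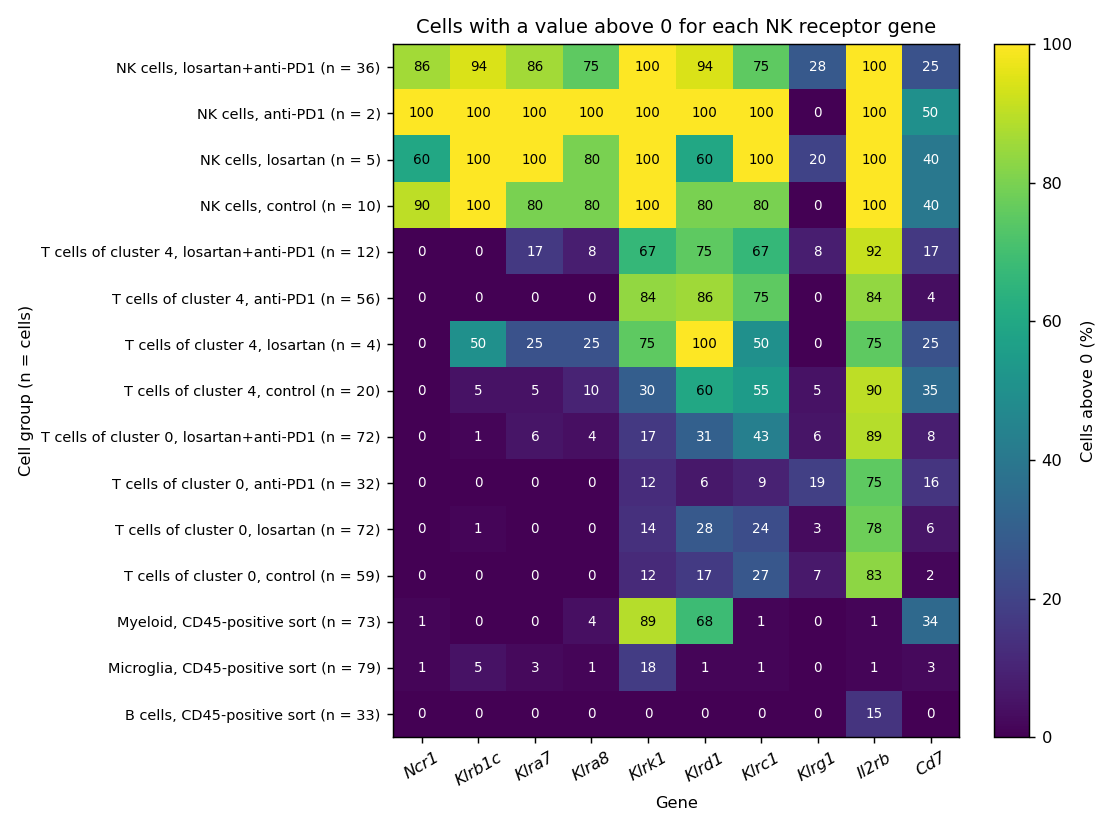
Share of cells above 0 (%, colour and number) for each of the 10 genes (columns) in the NK and T cell groups and in other cell types (rows). Il2rb and Klrk1 filled every NK cell, Ncr1 was at 0 in all 327 T cells, and Klrk1 and Klrd1 were also above 0 in most myeloid cells.

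Every NK cell carried many of the genes at once. The median NK cell had 8 of the 10 above 0 (range 5 to 10), and 3 cells had all 10. The median T cell, from the other sort, had 2 (range 0 to 6), with a median of 4 in the deposited cluster 4 and 1 in cluster 0. The median B cell had 0 and the median myeloid cell 2.

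Ncr1 encodes NKp46, an activating receptor that marks NK cells and some innate lymphoid cells. Transcripts were above 0 in 45 of 53 NK cells (84.9%, 72.4 to 93.3), with a mean of 77.8 ± 61.3 TP100K (SD, n = 53 cells) and a highest value of 297. On the plates it averaged 78.6 TP100K with losartan+anti-PD1, 66.02 with anti-PD1, 72.9 with losartan and 79.7 with control treatment. Outside the NK label it was above 0 in 1 of 73 myeloid cells, 1 of 79 microglia and 0 of 33 B cells.

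In T cells Ncr1 was at 0 in all 327 cells, and a count of 0 allows a share of up to 0.917%. It was also at 0 in the endothelial cells of the CD31-positive sort, which served as cells that should lack these genes and had a median of 3126 genes. Of the other members, Klrk1 was above 0 in 0.513% of the endothelial cells and the remaining 8 in none, which allows up to 1.54%. Malignant cells had Klrk1 above 0 more often, in 19.7% (12.9 to 28.02) of those in the CD31-positive sort at a mean of 0.880 TP100K and in 21.6% (15.3 to 29.1) of those in the CD45-negative sort at 2.15 TP100K. The means of these sorts are in different units.

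The 8 NK cells without Ncr1 had a median of 265796 expected counts, and the other 45 had 232013. The part of missed transcripts in the values of 0 was not tested. Klrk1, Il2rb, Klrb1c and Klra7 were above 0 in all 8, and so was Gzma, a cytotoxic granule protease. Klrd1 was above 0 in 5 of these 8 against 42 of 45, and Klrc1 averaged 1.01 TP100K in the 8 against 25.5 in the 45. These 8 cells were picked by the Ncr1 value itself, so the difference is a description of single cells.

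Klrb1c encodes NK1.1, an activating receptor of the NKR-P1 family that is used to stain NK cells in C57Bl/6 mice. The gene was above 0 in 51 of 53 NK cells (96.2%, 87.02 to 99.5) at 129.1 ± 86.6 TP100K (SD, n = 53 cells). On the losartan+anti-PD1 plate it ran between 0 and 282.9 with a median of 102.5 TP100K, and on the control plate between 52.3 and 314 with a median of 210.3. The cells of the plates overlapped over most of their range, and the log2 ratio was −0.68. In T cells it was above 0 in 5 of 327, with a highest value of 39.2 TP100K, and 4 of these 5 also held Fcer1g, the adaptor chain of NK receptors.

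Promoter sequence was looked at because members differed in how widely they were found. Of the 10 genes, 6 had an entry in the RefSeq promoter table (GRCm38.p6). The 250 bases before each start were searched for a RUNX motif, a T-box motif and an ETS motif, all binding motifs of factor families with members active in NK cells. The RUNX motif (TGTGGT, or ACCACA on the other strand) was in 4 of the 6, against 14.05% of 32851 promoters. The nearest one lay 50 bases before the start of Ncr1, which had 2, and 89 and 87 bases before those of Klrb1c and Klrc1, and none was in the windows of Klra7 and Klra8. The T-box motif (AGGTGT or ACACCT, 11.8% of all promoters) and the ETS motif (ACAGGAAG or CTTCCTGT, 2.90%) were in none of the 6. A match describes letters in a window and not a bound site. The windows of Ncr1, the gene not seen in T cells, and of Klrk1, the gene shared with T cells and myeloid cells, are shown 5′ to 3′ with the RUNX motif in capitals. Ncr1 lies on the plus strand at chr7:4337474-4337723 and Klrk1 on the minus strand at chr6:129623865-129624114.
Ncr1: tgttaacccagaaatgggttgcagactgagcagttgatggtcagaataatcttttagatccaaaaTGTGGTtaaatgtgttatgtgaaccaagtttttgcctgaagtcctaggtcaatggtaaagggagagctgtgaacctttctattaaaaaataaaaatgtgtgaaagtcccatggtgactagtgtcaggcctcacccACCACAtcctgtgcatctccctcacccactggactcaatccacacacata
Klrk1: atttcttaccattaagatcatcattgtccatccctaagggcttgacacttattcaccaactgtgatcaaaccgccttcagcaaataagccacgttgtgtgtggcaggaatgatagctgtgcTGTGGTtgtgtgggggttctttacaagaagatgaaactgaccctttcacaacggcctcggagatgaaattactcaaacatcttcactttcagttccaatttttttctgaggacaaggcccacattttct

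Klra7 and Klra8 encode Ly49G and Ly49H, lectin-like receptors that in mice do the work of the human killer immunoglobulin-like receptors. Ly49G is inhibitory and binds MHC class I, while Ly49H is activating and is known for recognising a protein of mouse cytomegalovirus. The genes lie in the Ly49 cluster on chromosome 6, at 130218605 to 130233322 (Klra7) and 130115226 to 130129898 (Klra8) on the minus strand of GRCm38. Their coding sequences (840 and 798 bases, GENCODE M21) were 77.9% identical over 798 aligned bases, and the longest identical run was 22 bases. The most different stretch of 30 coding bases is shown for both, with the 17 bases that differ in capitals. It lies at chr6:130218987-130219016 in Klra7 and chr6:130115623-130115652 in Klra8, each within 1 exon on the minus strand.
Klra7: TATaaTAtAaGAGAtGgaTTatgtAtGtCG
Klra8: ATGaaCTtTaCGTCtAgaGGatgtGtAtTT

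Within their coding sequences, reads of the pair could therefore be told from each other, but not always from other family members. Of the words of 25 bases in Klra8 transcripts, 63.8% also occurred in another gene, first of all the pseudogene Klra14-ps and Klra9, and 34.2% of those in Klra7 did, mostly in Klra13-ps and Klra4. In Klrc1 it was 59.5%, mostly shared with Klrc2, and in Klrb1c 21.5%. Ncr1, Klrd1, Klrg1 and Cd7 shared none. Values that were not whole, as RSEM gives where it splits reads, made up 40 of 41 values above 0 for Klra8, 37 of 46 for Klra7, 35 of 42 for Klrc1 and 40 of 51 for Klrb1c. They were also found for genes that shared no word, at 15 of 47 for Klrd1 and 6 of 45 for Ncr1. The levels of Klra8, Klra7, Klrc1, Klrb1c and, less so, Klrd1 are uncertain to that extent.

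Klra7 was above 0 in 46 of 53 NK cells (86.8%, 74.7 to 94.5) at 72.2 ± 60.3 TP100K, and Klra8 in 41 of 53 (77.4%, 63.8 to 87.7) at 82.6 ± 117.2 TP100K (SD, n = 53 cells). Klra8 was the more uneven of the pair, with a median of 14.7 and a highest value of 398 TP100K. Both were above 0 in 38 cells, only Klra7 in 8, only Klra8 in 3 and neither in 4. Of the 49 cells with either, Klra7 made up over 90% of the summed value in 16 and Klra8 in 8, and 25 cells lay in between. Most NK cells of these tumors thus had 1 or both genes above 0. Some Klra8 values counted as above 0 were low, such as 0.410 and 0.646 TP100K in 2 losartan+anti-PD1 cells, so a value above 0 need not mean a Klra8 transcript.

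By plate, Klra8 averaged 81.5 TP100K with losartan+anti-PD1, 281.1 in the 2 anti-PD1 cells, 126.6 with losartan and 25.05 with control treatment. The 2 anti-PD1 cells held 273.1 and 289.2 TP100K. The 36 losartan+anti-PD1 cells ran from 0 to 398 with a median of 16.5, and the 10 control cells from 0 to 130.8 with a median of 8.41. Klra7 averaged 73.7, 43.1, 97.9 and 59.4 TP100K on the same 4 plates in that order, a smaller spread.

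Among the 11 Ly49 genes on the list used here, which leaves out other entries of the family such as Klra13-ps and Klra14, Klra9 (47.7 TP100K, 29 of 53 cells), Klra4 (26.2, 34 cells) and Klra3 (19.4, 34 cells) followed the pair by mean in NK cells. Klra1 was also above 0 in 34 cells but averaged 4.28 TP100K. Klra2, Klra5, Klra6, Klra10 and Klra17 were above 0 in 4 to 8 cells each.

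In T cells the pair was rare. Klra7 was above 0 in 8 of 327 cells (2.45%), 6 of them on the losartan+anti-PD1 plate at values of 21.9 to 519 TP100K. The other 2 came from the losartan plate (60.6 TP100K) and the control plate (273.1 TP100K), and none of 88 cells came from the anti-PD1 plate. Of these 8 cells, 5 were CD8 cells by their transcripts (Cd8a or Cd8b1 above 0, Cd4 at 0), 4 held Fcer1g and 4 held Tyrobp, adaptors of NK receptors. Klra8 was above 0 in 7 T cells, in none over 4.04 TP100K, and 5 of the 7 also held Klra7.

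**Figure D2:**
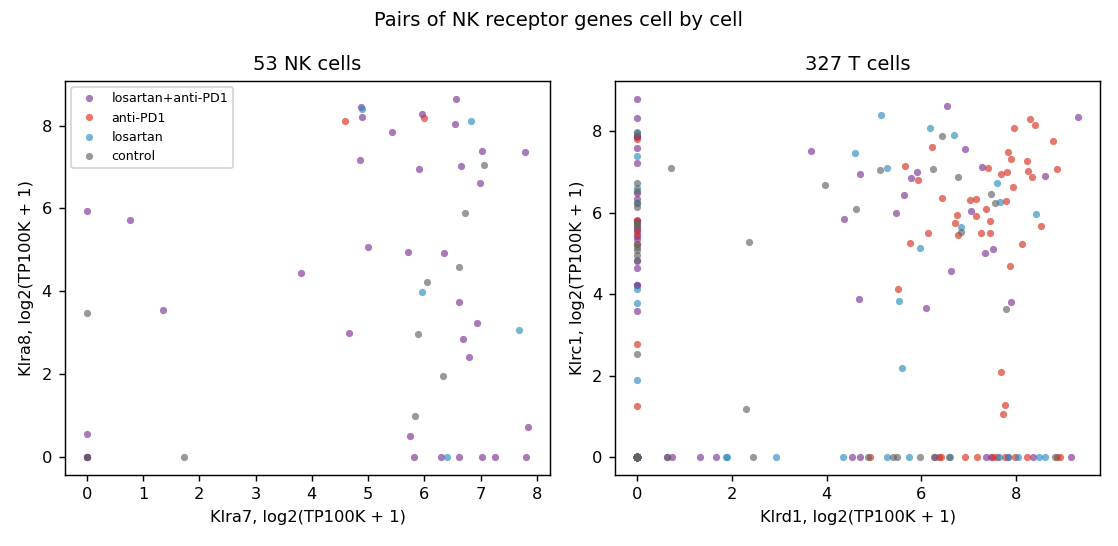
Gene pairs cell by cell, each axis log2(TP100K + 1), each point 1 cell coloured by treatment: Klra7 and Klra8 in 53 NK cells and Klrd1 and Klrc1 in 327 T cells. NK cells with high Klra7, with high Klra8 and with both were found, and 82 T cells held both Klrd1 and Klrc1.

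Klrk1 encodes NKG2D, an activating receptor that signals through Hcst (DAP10) and, in mice, also Tyrobp (DAP12), and binds stress-induced ligands. All 53 NK cells were above 0 (93.3 to 100%), at 156.4 ± 97.3 TP100K (SD, n = 53 cells), with values of 1.56 to 421. Tyrobp was above 0 in 50 of these cells and Hcst in 27. The plate means were 144.2 TP100K with losartan+anti-PD1, 100.2 with anti-PD1, 224.6 with losartan and 177.4 with control treatment.

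Klrk1 was also found outside the NK label. Transcripts were above 0 in 65 of 73 myeloid cells (89.04%, 79.5 to 95.1) at 64.99 ± 63.4 TP100K (SD, n = 73 cells), in 14 of 79 microglia and in 0 of 33 B cells. A single cell labelled microglia held 8 of the 10 genes. Of the 65 myeloid cells, 64 held Tyrobp and 10 held Hcst. The myeloid share was 10 of 11 cells with losartan+anti-PD1, 1 of 3 with anti-PD1, 29 of 34 with losartan and 25 of 25 with control treatment. Myeloid cells were deeper, with a median of 4055 genes, whereas B cells had 2771, close to the NK cells.

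Klrd1 (CD94) pairs with the products of Klrc1 (NKG2A) to form an inhibitory receptor for Qa-1, the product of H2-T23. In NK cells Klrd1 was above 0 in 47 of 53 (88.7%, 76.97 to 95.7) at 47.7 ± 41.4 TP100K, and Klrc1 in 42 of 53 (79.2%) at 21.8 ± 33.9 TP100K with a median of 2.58 (SD, n = 53 cells). Both were above 0 in 36 cells. Thinned to 20000 reads a cell, Klrc1 was above 0 in 51.9% of 52 NK cells, so its share depends on depth.

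Klrd1 was also found in 50 of 73 myeloid cells (68.5%, 56.6 to 78.9) at 25.6 ± 33.6 TP100K, where Klrc1 was above 0 in 1 cell. H2-T23 was above 0 in 98.6% of malignant cells of the CD45-negative sort and in 72 of 73 myeloid cells. Ligands of NKG2D were sparser. Among malignant cells, Raet1e was above 0 in 50.7%, Raet1a in 47.97%, Raet1d in 37.2% and Ulbp1 in 33.1%, each with a mean of at most 3.17 TP100K. Raet1a, Raet1d and Raet1e were at 0 in all 73 myeloid cells and all 79 microglia.

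Il2rb encodes the β chain shared by the receptors for IL-2 and IL-15, cytokines that sustain NK and memory CD8+ T cells. All 53 NK cells were above 0, from 36.8 to 555 TP100K, with a mean of 215.1. The plate means were 205.6 TP100K with losartan+anti-PD1, 132.5 with anti-PD1, 311 with losartan and 218.3 with control treatment. B cells were above 0 in 5 of 33 at a mean of 2.11 TP100K. Its partner chain Il2rg was above 0 in 47 NK cells, Il2ra in 9 and Il15ra in 3.

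Klrg1 encodes an inhibitory receptor for cadherins that marks late stages of NK and effector T cells. Of the NK cells it was above 0 in 10 of 36 with losartan+anti-PD1 (27.8%, 14.2 to 45.2), 0 of 2 with anti-PD1, 1 of 5 with losartan and 0 of 10 with control treatment, which allows a share of up to 30%. The highest value was 107.7 TP100K, and the 1 cell with losartan was at 0.284. None of the 33 B cells, 73 myeloid cells and 79 microglia had Klrg1 above 0.

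Cd7 encodes a co-stimulatory molecule of the immunoglobulin family found on NK and T cells. NK cells were above 0 in 16 of 53 (30.2%) at 7.59 ± 17.3 TP100K (SD, n = 53 cells). In myeloid cells it was above 0 in 25 of 73 (34.2%, 23.5 to 46.3) at 14.1 TP100K, so it did not separate the NK label from the myeloid label.

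**Figure D3:**
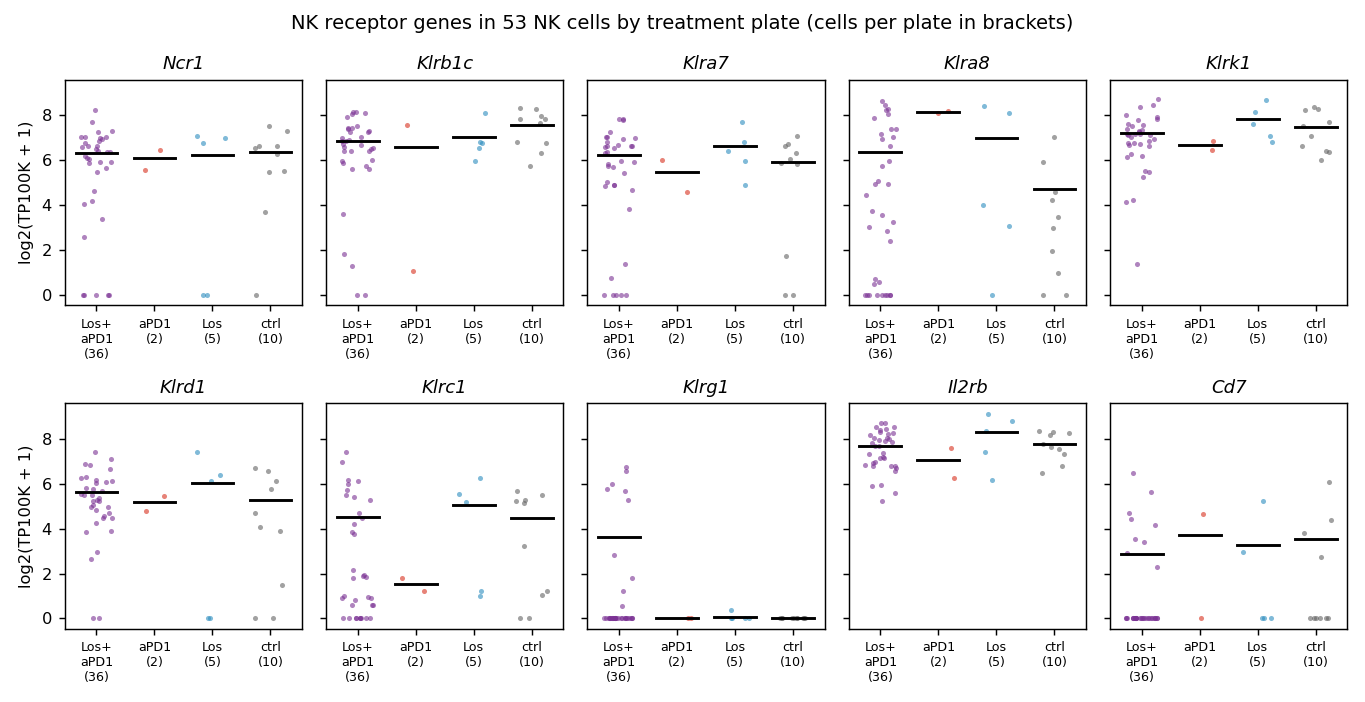
Values of the 10 genes in 53 NK cells as log2(TP100K + 1), 1 panel per gene, cells split by plate in the order losartan+anti-PD1, anti-PD1, losartan and control, with 1 point per cell and a bar at log2(mean TP100K + 1). Klra8 and Klrc1 spread from 0 to high values within a plate, and Klrg1 was found in 11 cells, 10 of them with losartan+anti-PD1.

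Against the 33 B cells, 73 myeloid cells and 79 microglia of the same sort, 8 of the 9 members measured were higher in NK cells by a log2 ratio of 1 or more, where 9.47% of 5965 genes were. The labels came from clusters of the same cells, so these ratios describe the label and do not test it. Ncr1, Klrb1c, Klra7, Klra8, Klrc1 and Il2rb also passed the filter only through the NK cells, with 1.08 to 3.78% of the other cells above 0. The other cells were near 0 for most members, so the size of a ratio depends on the added 1 TP100K, and over 9 alternatives Ncr1 ran from 3.13 to 9.13, Klrb1c from 3.76 to 8.51 and Il2rb from 4.40 to 8.10. The ratios were 7.0 for Il2rb, 6.70 for Klrb1c, 6.24 for Ncr1, 6.19 for Klra8, 6.08 for Klra7 and 4.34 for Klrc1. Klrk1 (2.47) and Klrd1 (2.11) were less far apart, and Cd7 differed by 0.33. Set against myeloid cells alone, the ratios were 1.25 for Klrk1, 0.87 for Klrd1 and −0.81 for Cd7. Klrg1 was not measured in this comparison.

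The order of the levels in NK cells was read after dividing the expected counts by transcript length, for 20253 of 21765 genes, and scaling to 100000 again. Klra8 and Klra7 (181.8) led the members, followed by Ncr1 (148.9), Klrd1 (146.5), Il2rb (142.8), Klrk1 (139.4) and Klrb1c (136.8). The plate means of these 7, over plates of 5 or more cells, ran across each other, from 60.7 to 266.2 for Klra8 and from 108.7 to 164.9 for Klrd1, so their order was not fixed. Klrc1 (32.9, plates 30.9 to 38.3), Cd7 (23.4, 19.97 to 33.7) and Klrg1 (16.99, 0 to 25) stood below all 7. On this scale the adaptor Fcer1g (468) exceeded every member on each of the 4 plates. Tyrobp averaged 240.3 but lay below Klra8 on the anti-PD1 plate and below Klra8, Klra7 and Klrk1 on the losartan plate, and Hcst was at 31.7.

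The NK cells with losartan+anti-PD1 (n = 36 cells) were set against those with control treatment (n = 10 cells), the only plates with 10 or more. All 10 members were measured, and 2 were higher by a log2 ratio of 1 or more while 0 were lower by as much. Over 5306 genes the shares were 17.2% higher and 14.4% lower, so the members' count was near that of all genes. The 2 were Klra8 (1.66) and Klrg1 (3.65), and Klrg1 passed the filter only through the plate where it was found, with the control cells at 0. Its ratio depends on the added 1 TP100K and is no bound.

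The other 8 members lay between −0.68 (Klrb1c) and 0.38 (Klrd1), with Ncr1 at −0.02, Il2rb at −0.09 and Klrk1 at −0.30. Klra8 ran from 0.88 to 2.36 over 9 alternatives. Of 6 Ly49 genes measured Klra3 was also higher (2.07), and of 7 CD94/NKG2 genes Klrc2 (1.24), Klrc3 (1.24) and Klri2 (1.01) were higher, with medians of 0.32 and 0.58 for these families beside 0.03 for all genes. In the same comparison 4 of 11 effector genes measured were higher, among them Ccl4 (3.85), Ccl5 (1.80) and Prf1 (1.35), which encodes perforin. Of 8 NKR-P1 and Clr genes, Clec2i (−2.63) and Clec2g (−2.19) were lower. Of 9 other receptors Itgam (1.94) and Cd27 (1.24) were higher and Cd226 (−1.87) lower, and of 9 transcription factor genes Zeb2 (3.53) and Prdm1 (1.79) were higher. The adaptors Fcer1g (0.18) and Tyrobp (0.01) differed little, but they do not stand for all genes of receptor signalling. By means divided by transcript length, Plcg2 was lower with losartan+anti-PD1 than with control treatment, while Cd247 was higher. Itgax (1.77) and Cx3cr1 (2.48) were higher too, as was the sum of the T cell markers given above, in which Cd247 had the largest mean. The part of these genes in the ratios was not tested.

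In T cells taken as a whole, 4 members were common enough to be measured in at least 1 comparison of treatments. Il2rb was above 0 in 83.2% of the 327 cells (78.7 to 87.1), Klrc1 in 39.8%, Klrd1 in 38.8% and Klrk1 in 29.7%. TPM values are per length, so the means can be set side by side, at 58.3 TP100K for Klrd1, 47.9 for Il2rb, 39.6 for Klrc1 and 13.8 for Klrk1. The order was not the same on every plate: the mean of Klrd1 was above that of Il2rb on the anti-PD1 plate and below it on the other 3. Klra7 (5.86), Cd7 (4.99) and Klrg1 (4.46) followed, in 2.45%, 8.56% and 5.5% of cells.

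Klrk1 stood out on the anti-PD1 plate. It was above 0 in 20 of 84 T cells with losartan+anti-PD1 (23.8%, 15.2 to 34.3), 51 of 88 with anti-PD1 (57.95%, 46.95 to 68.4), 13 of 76 with losartan (17.1%) and 13 of 79 with control treatment (16.5%, 9.06 to 26.5). The means were 5.87 ± 13.4, 36.9 ± 46.2, 5.36 ± 17.1 and 4.70 ± 17.1 TP100K in that order (SD over cells). The median cell was at 23.9 TP100K on the anti-PD1 plate and at 0 on the other 3, and the highest single cell of a plate ran from 53.7 TP100K with losartan+anti-PD1 to 204.6 with anti-PD1.

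Klrd1 followed the same order. It was above 0 in 31 of 84 cells with losartan+anti-PD1 (36.9%), 50 of 88 with anti-PD1 (56.8%, 45.8 to 67.3), 24 of 76 with losartan (31.6%) and 22 of 79 with control treatment (27.8%, 18.3 to 39.1). The means were 49.4 ± 115.6, 115.2 ± 132.7, 38.5 ± 87.5 and 23.4 ± 65.7 TP100K in that order (SD over cells), with the highest single cell, 636 TP100K, on the losartan+anti-PD1 plate. Values of all 4 plates overlapped, since each held cells at 0.

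Klrc1 was split otherwise, with losartan+anti-PD1 and anti-PD1 close together. It averaged 53.2 ± 94.8 TP100K (46.4% of cells) with losartan+anti-PD1, 48.5 ± 73.4 (51.1%) with anti-PD1, 27.95 ± 69.8 (25%) with losartan and 26.5 ± 51.1 (34.2%) with control treatment. Klrc2, which shares much of its sequence, was above 0 in 99 T cells at a mean of 1.95 TP100K, and all 99 also held Klrc1. Il2rb averaged 57.5, 38.1, 51.1 and 45.7 TP100K on the 4 plates in the same order and was above 0 in 77.6 to 89.3% of cells.

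**Figure D4:**
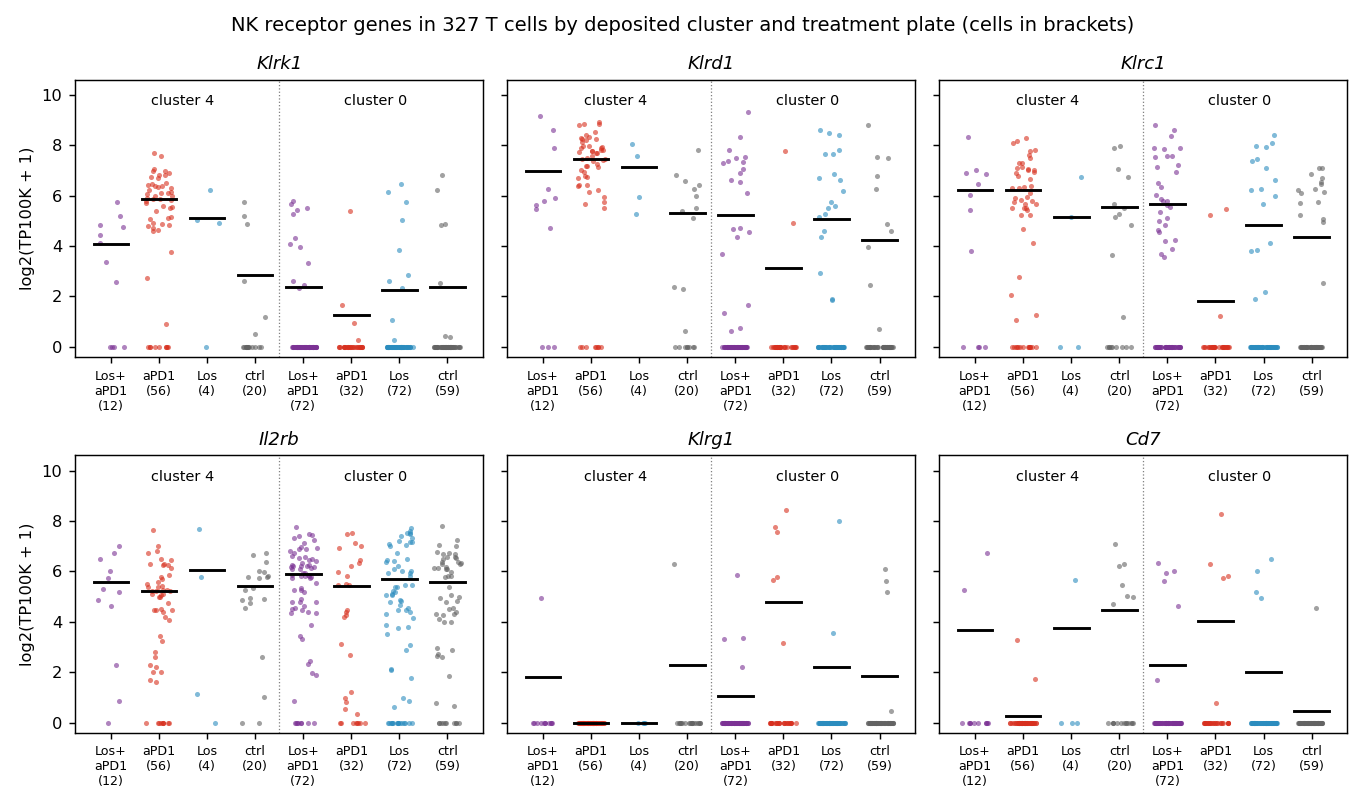
Values of 6 genes in 327 T cells as log2(TP100K + 1), 1 panel per gene, with cells split by deposited cluster (4, then 0) and plate, 1 point per cell and a bar at log2(mean TP100K + 1). In cluster 4 the anti-PD1 cells held the highest mean of Klrk1 (57.2 TP100K) and Klrd1 (176.6 TP100K).

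With anti-PD1 against control treatment, 4 members were measured, 2 were higher by a log2 ratio of 1 or more, where 4.07% of 3247 genes were, and 0 were lower by as much (4.10% of genes). The 2 were Klrk1 (2.73) and Klrd1 (2.25), with Klrc1 at 0.85 and Il2rb at −0.26. Klrk1 passed the filter only through the anti-PD1 plate, where it was high (57.95% of cells against 16.5%). Its place in the count is therefore a description. Over 9 alternatives Klrk1 ran from 1.67 to 3.08 and Klrd1 from 1.88 to 2.76. The mix of T cells differed too: cluster 4, the cluster with most Cd8a, held 56 of 88 cells with anti-PD1 (63.6%) and 20 of 79 with control treatment (25.3%), and CD8 cells numbered 58 and 25. Cells with both Cd4 and Cd8a or Cd8b1 above 0, which the CD8 class leaves out, numbered 6 and 22. Cd8b1 was higher by 1.81 and Cd4 lower at −1.81.

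Of the CD8 cells, 54 of 58 with anti-PD1 and 18 of 25 with control treatment lay in cluster 4. Within the CD8 cells alone the ratios were 2.19 for Klrk1, 2.14 for Klrd1 and 0.82 for Klrc1. Klrk1 was above 0 in 46 of 58 CD8 cells with anti-PD1 (79.3%, 66.6 to 88.8) and 6 of 25 with control treatment (24%, 9.36 to 45.1), which are shares of cells on 1 plate each. Klrd1 was above 0 in 48 of 58 (82.8%, 70.6 to 91.4) and 12 of 25 (48%, 27.8 to 68.7). Within cluster 4 the ratios were 3.01 for Klrk1 and 2.15 for Klrd1. Both genes were past the limit of 1 in these subsets. In CD8 cells Klrk1 passed the filter only through the anti-PD1 plate, and cluster 4 was made from expression of these same cells. The part of the cell mix in the ratios was not tested.

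Among the other receptors fixed as lists, 2 of 8 measured in this comparison were higher, Itga1 (1.81) and Cd96 (1.36), and Slamf6 (−1.42) was lower. Of 8 adaptors measured, 0 were higher and Sh2d1a (−1.12) was lower. Of 9 genes of the IL-2 and IL-15 chain, Bcl2, a survival gene, was lower (−2.49), and of 9 effector genes Gzmb, the granule protease granzyme B, was lower (−1.61). The median over the measured genes was 0.58 for the other receptors, −0.34 for adaptors, −0.19 for the cytokine chain and −0.04 for effector genes, beside 0.01 for all genes. No Ly49 gene was measured in this comparison. On this plate granzyme B was thus lower where Klrk1 and Klrd1 were higher.

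With losartan+anti-PD1 against control treatment, 3 members were measured and 1 was higher by 1 or more, where 3.24% of 3709 genes were, and 0 were lower (1.62%). Klrd1 was at 1.05, Klrc1 at 0.98 and Il2rb at 0.32, and Klrd1 ran from 0.71 to 1.66 over 9 alternatives, so it did not stay past the limit in all of them. Ccl4 (1.97), Ccl3 (1.93), Prf1 (1.43) and the transcription factor gene Tbx21 (1.36) were higher in this comparison. The effector list had 3 of 9 measured genes higher and a median of 0.86, beside 0.05 for all genes.

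With losartan against control treatment, 3 members were measured and 0 passed the limit in either direction, where 3.12% of 3238 genes were higher and 2.75% lower. Klrd1 was at 0.69, Il2rb at 0.16 and Klrc1 at 0.08. The losartan plate held 6 CD8 cells of 76, against 25 of 79 on the control plate. Cd8b1 was at −2.23, and the effector genes Ccl5 (−2.29) and Gzmb (−1.32) were lower, among 3 of 7 effector genes measured (median −0.41, beside 0.03 for all genes).

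With losartan+anti-PD1 against anti-PD1, 4 members were measured, 0 were higher by 1 or more (5.72% of 3687 genes) and 2 were lower by as much (3.25%). The 2 were Klrk1 (−2.46) and Klrd1 (−1.21), with Klrc1 at 0.13 and Il2rb at 0.58. Here too Klrk1 passed the filter only through the anti-PD1 plate (57.95% of cells against 23.8%). All comparisons with control treatment share its plate, and this one shares the anti-PD1 plate with the first, so they are not separate evidence. The CD8 cells numbered 18 of 84 with losartan+anti-PD1 and 58 of 88 with anti-PD1.

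Of the CD8 cells, 10 of 18 with losartan+anti-PD1 and 54 of 58 with anti-PD1 lay in cluster 4. Within CD8 cells the ratio was −2.03 for Klrk1 and −1.24 for Klrd1, and within cluster 4 it was −1.77 and −0.49, so for Klrd1 the limit was not reached in cluster 4. Klrk1 was above 0 in 9 of 18 CD8 cells with losartan+anti-PD1 (50%, 26.02 to 73.98) and 46 of 58 with anti-PD1 (79.3%, 66.6 to 88.8). Other receptors lower with losartan+anti-PD1 were Cd96 (−1.85), Itga1 (−1.51) and Itgae (−1.44), among 4 of 7 measured, whereas Tigit, an inhibitory receptor, was higher (1.12). Hcst, the adaptor of NKG2D, was lower (−1.21). Of 10 effector genes measured, 5 were higher, among them Ccl3 (2.76), Gzmb (2.51), Ccl4 (1.56) and Ifng (1.47). The medians were −1.08 for the other receptors and 1.14 for effector genes, beside 0.05 for all genes.

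**Figure D5:**
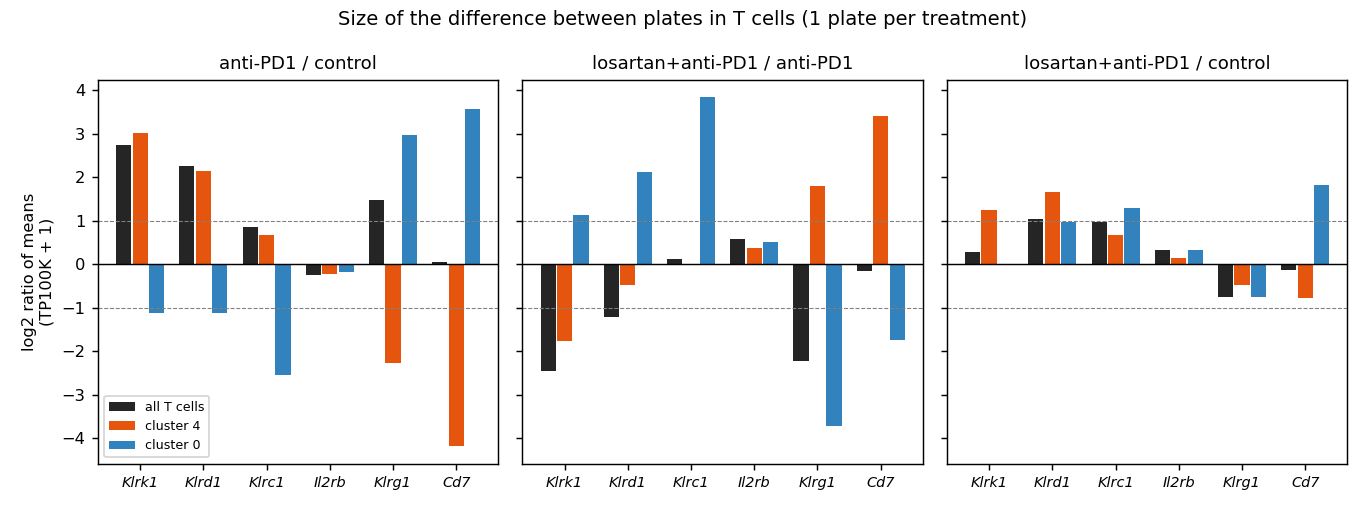
Log2 ratios of mean TP100K + 1 for 6 genes (y axis) for 3 pairs of plates, with bars for all T cells, cluster 4 and cluster 0 and dashed lines at 1 and −1; no error can be given. With anti-PD1 against control treatment Klrk1 was at 2.73 over all T cells and 3.01 in cluster 4, and with losartan+anti-PD1 against anti-PD1 at −2.46 and −1.77, while in cluster 0, where it was above 0 in too few cells to count as measured, it was at −1.13 and 1.12.

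Among the T cell classes, Klrk1 was above 0 in 65 CD8 cells (60.7%, 50.8 to 70.05) and 13 CD4 cells (10.7%, 5.80 to 17.5). Klrd1 was above 0 in 75 CD8 cells (70.1%, 60.5 to 78.6) and 25 CD4 cells (20.5%, 13.7 to 28.7). Klrc1 was less divided, at 61 CD8 cells (57.01%, 47.1 to 66.5) and 39 CD4 cells (31.97%, 23.8 to 41.02), and Il2rb was above 0 in 81.3% of CD8 and 81.1% of CD4 cells. Of the 92 T cells of cluster 4, 84 were CD8 cells and 0 were CD4 cells, and the other 23 CD8 cells lay in cluster 0.

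In CD4 cells the order of the plates was another one. Klrc1 was above 0 in 19 of 42 with losartan+anti-PD1 (45.2%, 29.8 to 61.3), 2 of 16 with anti-PD1 (12.5%, 1.55 to 38.3), 13 of 42 with losartan (30.95%) and 5 of 22 with control treatment (22.7%, 7.82 to 45.4). Klrd1 was above 0 in 10 of 42, 0 of 16, 14 of 42 and 1 of 22 CD4 cells in that order. Klrc1 was thus found in CD4 cells of every plate, and Klrd1 in those of every plate but anti-PD1, where none of 16 CD4 cells held it.

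Clusters 4 and 0 were made from these same cells, so their difference is a description. It was 3.12 for Klrk1, 2.32 for Klrd1, 1.18 for Klrc1 and −0.34 for Il2rb. Klrd1 was above 0 in 73 of 92 cells of cluster 4 (79.3%) and in 54 cells of cluster 0 (22.98%). Within the anti-PD1 plate the ratios were 4.62 for Klrk1, 4.35 for Klrd1 and 4.42 for Klrc1, and within the control plate 0.47, 1.07 and 1.19. By mean, the anti-PD1 plate had both the highest Klrk1 and Klrd1 in cluster 4 and the lowest in cluster 0, where Klrk1 was above 0 in 4 of 32 cells and Klrd1 in 2. By share of cells the order was another one, since Klrk1 in cluster 0 was above 0 in 12.5% with anti-PD1 and 11.9% with control treatment. Klrc1 was also lowest there on the anti-PD1 plate. In cluster 0 it averaged 49.7 TP100K with losartan+anti-PD1 (31 of 72 cells), 2.55 with anti-PD1 (3 of 32), 27.6 with losartan (17 of 72) and 19.7 with control treatment (16 of 59).

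The receptor partners were found together in single T cells. Klrd1 and Klrc1 were both above 0 in 82 cells, only Klrd1 in 45 and only Klrc1 in 48. Klrd1 and Klrk1 were both above 0 in 72 cells. Of the 97 T cells with Klrk1, 66 held Hcst and 7 held Tyrobp. Over all T cells Hcst was above 0 in 56% and Tyrobp in 8.0%.

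Klrg1 in T cells followed Foxp3, the factor of regulatory T cells. Of 327 T cells, 18 were above 0, and 14 of these held Foxp3. Of the 33 T cells with Foxp3 it was above 0 in 14 (42.4%, 25.5 to 60.8), and of the 294 without Foxp3 in 4 (1.36%). On the anti-PD1 plate it was above 0 in 6 cells, at 7.89, 48.8, 54.1, 186.6, 215.1 and 347 TP100K, and all 6 lay in cluster 0 and held Foxp3. The NK cells with Klrg1 held no Foxp3.

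Cd7 was above 0 in 28 T cells. With control treatment 7 of its 8 cells were CD8 cells of cluster 4, whereas 6 of 8 with losartan+anti-PD1, 5 of 7 with anti-PD1 and 4 of 5 with losartan lay in cluster 0. In CD8 cells it was above 0 in 2 of 58 with anti-PD1 and 7 of 25 with control treatment, at means of 0.190 and 16.5 TP100K (log2 ratio −3.88). The anti-PD1 mean over all T cells, 5.71 TP100K, rested on 1 cell at 306, which made up 60.9% of the sum.

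Likeness was read as Pearson r of mean ln(TP100K + 1) over groups of 5 or more cells, as a description over groups that share plates, with no test. Over 13 groups of CD45-positive cells, Ncr1 was most like Klra1 (0.996) and Gata3 (0.994), Klrb1c like Skap1 (0.999), and Klra7 and Klra8 both like Klra13-ps (0.999 each), a pseudogene that shares sequence with Klra7. Klrk1 and Klrd1 were each other's nearest gene (0.962). Il2rb was most like Ctsw (0.997), Klrc1 like Fasl (0.998), Klrg1 like Cma1 (0.998) and Cd7 like Fyn (0.985). Over 7 groups of T cells, Klrc1 was most like Klrc2 (0.988), Klrd1 like Dnajc15 (0.985), Klrk1 like Ctla2a (0.977), Il2rb like Cd2bp2 (0.968) and Cd7 like Prrc2c (0.992). Cd7 passed the filter there only through the control cells of cluster 4 (7 of 20).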

How the data were processed

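Reads of mouse cells were aligned by the authors to the mm10 transcriptome with Bowtie and quantified with RSEM, given as version 1.2.8 in the submitters' processing notes, which also name TopHat. T cell and endothelial libraries were made with trehalose in a modified Smart-seq2 protocol, and cells were sorted as CD45+CD3-, CD45+CD3+ and CD45-. As deposited, CD3-positive and CD31-positive values are TPM, a unit in which the authors corrected for transcript length and gave every cell an equal sum, so depth is unknown. CD45-positive and CD45-negative values as deposited are RSEM expected counts with no length correction by the authors, although the study describes TPM for all cells. CD45-positive totals were 7946 to 1808024 per cell (median 286371), and 73.8% of values above 0 were exactly whole. The authors filtered cells on the number of genes (1023 to 7995 here), and their cell labels and clusters were used as deposited.

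Each cell was scaled to 100000, and group means, shares of cells above 0 and log2 ratios (1 TP100K added) were computed within a sort. No test was run, since no animal is named and each treatment has 1 plate. Pathway genes came from 19 lists with 183 entries, 11 of them not in the table. All 10 members are named, and other genes are named only from these lists, at most 4 a list and comparison, or as the 3 nearest by likeness, among genes above 0 in at least 25% of cells. CD8 cells had Cd8a or Cd8b1 above 0 and Cd4 at 0, and CD4 cells the reverse. The 50 T cells with both and the 48 with neither were in neither class. The members and lists were chosen with earlier results of these data known. Where no cell was above 0, the upper limit given is 3 divided by the number of cells. Doublets were gated out at the sorter by the study, and no caller was run. Alternatives were a pseudocount of 0.1 or 10 TP100K, scaling by the 75th percentile, no filter, detection above 1 TP100K, cells of 1500 to 4000 genes, the mean ln difference, leaving out the highest cell, cluster 4, CD8 cells, NK cells without Cd3 transcripts and thinning to 20000 reads. Gene positions and coding sequences came from GENCODE M21 (GRCm38) and promoters from RefSeq. The steps were tested on simulated data. Tools were matplotlib 3.10.9, SciPy 1.17.1, NumPy 2.4.6, pandas 2.3.3 and Python 3.11.15.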

Additional observations from a re-analysis of the deposited data

Results flagged for a closer look

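For 4 genes the log2 ratio between 2 plates was past 1 in one direction in T cells of cluster 4 and in the other direction in cluster 0. With 1 plate per treatment, the difference between clusters was not tested, and the clusters were made from the same cells.

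With anti-PD1 against control treatment, Klrk1 was at 3.01 in cluster 4 and −1.13 in cluster 0, and Klrd1 at 2.15 and −1.13. In cluster 0 both were in too few cells to count as measured, Klrk1 in 4 of 32 with anti-PD1 and 7 of 59 with control treatment, and 1 cell made up 92.4% of the anti-PD1 sum of Klrk1 and 88.2% of that of Klrd1. Klrg1 was at −2.27 in cluster 4 and 2.97 in cluster 0, where the cluster 4 value rests on 1 control cell. Cd7 was at −4.19 in cluster 4 and 3.57 in cluster 0, where the anti-PD1 mean of 15.4 TP100K held 1 cell at 306.

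With losartan+anti-PD1 against anti-PD1, Klrk1 was at −1.77 in cluster 4 and 1.12 in cluster 0, where it was again in too few cells to count as measured and the anti-PD1 mean was 1.37 TP100K, most of it from that 1 cell at 40.5. Klrg1 was at 1.79 in cluster 4, where 1 cell of 12 with losartan+anti-PD1 was above 0, and −3.73 in cluster 0. Cd7 was at 3.41 in cluster 4 and −1.75 in cluster 0. These comparisons share the anti-PD1 plate with the first set.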

How the results depend on the processing

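Of 99 counts of members past a log2 ratio of 1 under an alternative, 76 were within 1.5 times the count given in the report and 23 were not. Of the ratios of measured members past the limit 0 reversed. Klrg1 and Klra7, not measured in T cells as a whole, turned: Klrg1 with anti-PD1 against control treatment (1.47) to −2.27 in cluster 4 and −2.02 in CD8 cells, with losartan+anti-PD1 against anti-PD1 (−2.23) to 1.79 and 1.40, and Klra7 with losartan against control treatment (−1.31) to 0.14 in cluster 4. In T cells with losartan+anti-PD1 against control treatment the count of higher members, 1 in the report, was 2 with a pseudocount of 0.1 TP100K, scaling by the 75th percentile, no filter, without the highest cell and in cluster 4, and 0 with a pseudocount of 10 TP100K, in cells of 1500 to 4000 genes, with mean ln values and in CD8 cells. With losartan+anti-PD1 against anti-PD1, the count of higher members, 0 in the report, was 1 with the 75th percentile, mean ln values and no filter, and that of lower members, 2 in the report, was 1 with the 75th percentile and in cluster 4. With anti-PD1 against control treatment the count of lower members, 0 in the report, was 1 with no filter, in cluster 4 and in CD8 cells. With losartan against control treatment the count of lower members was 1 with no filter and in CD8 cells, and that of higher members was 3 in cluster 4 (4 against 20 cells), both 0 in the report. In NK cells with losartan+anti-PD1 against control treatment, the count of lower members, 0 in the report, was 1 with mean ln values and thinning, and that of higher members, 2 in the report, was 1 with thinning (35 against 10 cells). The causes were not tested, beyond the smaller numbers of cells. Scaling by the 75th percentile moved the median log2 ratio of all genes measured to 0.41 with losartan+anti-PD1 against anti-PD1, −0.18 with anti-PD1 against control treatment, 0.21 with losartan+anti-PD1 against control treatment, −0.12 with losartan against control treatment and −0.33 for NK cells against other cells. Leaving out the highest cell moved it to 0.32 in NK cells with losartan+anti-PD1 against control treatment. Of 250 shares of cells, all but 7 stayed within their interval. No paired analysis was possible because each treatment has 1 plate per sort and no test was run. Groups of 2 to 12 cells, and the absence of animal labels, limit every value.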
